A study of Mus musculus with 12 samples.

Results

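Most mammalian protein-coding genes are split into exons, and a small set, the intronless genes, is read from a single exon with nothing to splice. The 184 genes described here were nuclear genes annotated as protein-coding in GENCODE M21 (mouse genome build mm10) whose annotated transcripts all had 1 exon and whose level averaged at least 1 CPM (counts per 1000000 reads on genes, by library size) over the 6 Input libraries. They came from 1313 intronless coding genes, and 63 more reached that level but were left out by symbol, namely histone, mitochondrial, olfactory, vomeronasal and ribosomal protein names and the transcription factor genes *Jun*, *Junb*, *Ier2*, *Cebpa*, *Cebpb* and *Cebpd*. The members were thus chosen by their measured Input level, which is given as a description only. Just inside the limit were *Gpr27* at 1.03 CPM, *Rep15* at 1.04 CPM and *1700056E22Rik* at 1.06 CPM, and just outside it *Tssk6* at 0.997 CPM, *Rnf223* at 0.924 CPM and *Tigd5* at 0.888 CPM. For comparison, 11150 multi-exon coding genes met the same limits on level and symbol.

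YTHDF2 is a cytoplasmic reader protein that holds mRNA carrying N6-methyladenosine (m6A) and brings it to the deadenylation machinery, which shortens its life. The m6A mark is laid down in a short sequence context whose commonest core is GGACU. The protein complex left behind at exon junctions after splicing keeps the methyltransferase away from the sequence close by, so m6A is found mainly in long internal exons, in last exons and near stop codons. A transcript with no junction has no such protected sequence. Known single-exon mRNAs encode many short-lived regulators, such as transcription factors, G protein-coupled receptors and small GTPases.

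The libraries were RNA immunoprecipitation sequencing (RIP-seq) of CD11b+ myeloid cells, sorted from tumors of MC38, a mouse colon carcinoma line, in WT mice aged 8 to 10 weeks. These mice carried the floxed *Ythdf2* allele (*Ythdf2* f/f) and, as the labels call them WT, served without deletion in all 4 groups. Ctrl tumors were unirradiated, and IR tumors had received 1 local dose of 20 Gy 3 days before collection. Each condition had 3 pools of 5 mice, described in the methods as technical replicates, and each pool gave an Input library, which measures abundance, and an IP library made with an antibody to YTHDF2, 12 libraries in all. With no IP made with a control antibody or from cells lacking YTHDF2 among these libraries, RNA held nonspecifically cannot be told apart from bound RNA, and in bulk RNA a change in the cells present cannot be told apart from a change per cell.

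The number of reads counted on genes ran from 27852948 to 42382532 per library. In Ctrl the intronless genes took 0.506% ± 0.0017 (SD, n = 3) of the Input counts and 1.33% ± 0.0079 of the IP counts. In IR they took 0.510% ± 0.0039 (SD, n = 3) of the Input counts and 1.20% ± 0.026 of the IP counts. The share of uniquely aligned reads that the counting gave to no annotated feature moved with the fraction and the condition. Its means were 27.0% (Ctrl) and 24.7% (IR) for Input libraries and 42.3% (Ctrl) and 51.4% (IR) for IP libraries. Whether such reads lay between genes or in introns was not counted, and their part in the results was not tested. Myeloid markers such as *Itgam* and *Lyz2* summed to 10299 to 11252 CPM in the Ctrl Inputs and to 13906 to 14476 CPM in the IR Inputs, and B cell markers to 12.2 to 13.6 and 20.3 to 24.1 CPM. Neither pair of ranges overlapped, and their part in the changes with IR was not tested. The markers of T and NK cells summed to at most 1.87 CPM in the Inputs, those of tumor or epithelial cells to at most 6.89 CPM with *Krt19* at 0, fibroblast markers to at most 12.8 CPM and endothelial markers to at most 27.4 CPM.

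Not every intronless gene is read without doubt. A near-identical copy elsewhere in the annotated coding transcriptome or among other genes, of at least 95% identity over at least 50% of the transcript, existed for 32 members, and reads that fit both places are lost or split. A further property, exonic overlap with another annotated gene, held for 46 members, 42 of them with a gene on the opposite strand and 6 on the same strand. Both held for 6 members and neither for 112. All 184 members passed the filter on low counts in every comparison.

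The sequences below show what a reader protein of m6A could meet in these transcripts. For each gene the GGACT closest to the stop codon is given with 12 bases on both sides, in the sense of the transcript (GGACU in the RNA), taken from the M21 transcripts. Capitals mark the motif. The first 8 genes are among those with high IP over Input, and the last is a member with low IP.

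Purb, chr11:6475154-6475182, minus strand, coding sequence: ctccatcaccgtGGACTcgaagcgcttct
Cenpb, chr2:131178337-131178365, minus strand, coding sequence: ggaaggaggagaGGACTctgactcagaca
H2afx, chr9:44335944-44335972, plus strand, 3′ UTR: gaatccctgtctGGACTgagcctctggct
Mfsd6l, chr11:68558117-68558145, plus strand, 3′ UTR: tcacggatgcaaGGACTcgtgccctgcac
Ccnq, chr11:78750801-78750829, minus strand, 3′ UTR: tctccactcggaGGACTggttgtgctggc
Nkapl, chr13:21467673-21467701, minus strand, coding sequence: agcttcagaaagGGACTtgccagaagatg
Fem1a, chr17:56258714-56258742, plus strand, coding sequence: ctacgagctgctGGACTcgaagctgttgg
Utp3, chr5:88555829-88555857, plus strand, coding sequence: gctaaaaataggGGACTtacacccaggag
Rraga, chr4:86576089-86576117, plus strand, coding sequence: gctgaacctgtgGGACTgtggcggccagg

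Read on the transcript strand only, GGACT occurred at least once in 152 of the 184 members (82.6%) and in 93.1% of the multi-exon transcripts, which were longer. Per 1000 bases the medians were alike, 1.05 in both sets. Such a match marks letters and not a methylated base, since m6A was not measured in these libraries. *Sox4* held 9 copies of the motif, *Purb* 7, *Utp3* and *Nkapl* 3 each, and *Cenpb* 2. *H2afx*, *Ccnq* and *Rraga* held 1 each, and *Kcna3* and *Eid1*, which are described further on, held none.

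The first question was whether YTHDF2 held these mRNAs in unirradiated tumors. *Purb*, which encodes a protein that binds purine-rich single-stranded DNA and RNA, was the member with the second highest Input level and had the strongest IP signal of all. Its transcript of 8319 bases (chromosome 11, 6467599 to 6475917, minus strand) was at 418, 400 and 403 CPM in the 3 Ctrl Inputs and at 3046, 3114 and 3067 CPM in the 3 Ctrl IPs. The groups lay far apart, and the binding intensity, the log2 ratio of IP over Input, was 3.04 ± 0.03 (SE, edgeR's quasi-likelihood test, Benjamini-Hochberg adjusted p = 6.4e-20), an 8.21-fold enrichment. CPM levels share 1 scale over all 12 libraries while each fitted fold is scaled within its comparison, so that both can differ slightly. *Purb* overlaps a small RNA gene on its own strand and a gene on the other.

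Beside *Purb*, several abundant regulators of chromatin stood high in the IP. *Cenpb*, which encodes a DNA-binding protein of the centromere, measured 202, 207 and 209 CPM in the Ctrl Inputs against 1471, 1532 and 1591 CPM in the Ctrl IPs. *H2afx*, the gene of the histone variant that is phosphorylated at DNA breaks, was at 141, 147 and 147 CPM in the Input and at 909, 956 and 927 CPM in the IP. For *Jund*, a subunit of the AP-1 transcription factor and the member with the highest Input level, the libraries read 536, 514 and 532 CPM in the Input and 1575, 1480 and 1592 CPM in the IP. None of the Input and IP values of these genes overlapped, and the log2 ratios were 3.02 ± 0.04 for *Cenpb*, 2.80 ± 0.04 for *H2afx* and 1.67 ± 0.04 for *Jund* (SE, edgeR, adjusted p = 2.2e-19, 4.3e-19 and 1.3e-16). All 3 overlap another annotated gene, *Cenpb* on its own strand.

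Members with neither overlap nor copy reached the same range. *Mfsd6l*, which encodes a membrane protein of the major facilitator superfamily, rose from 10.8, 9.65 and 12 CPM in the Ctrl Inputs to 94.9, 88.6 and 90.4 CPM in the IPs, a log2 ratio of 3.19 ± 0.08 (SE, edgeR, adjusted p = 9.6e-16). *Nkapl*, a single-exon relative of the transcriptional regulator gene *Nkap*, went from 2.52, 2.21 and 2.61 CPM to 13.7, 20.8 and 14.8 CPM, with a ratio of 2.87 ± 0.19 (SE, edgeR, adjusted p = 2.9e-10). *Ccnq*, the cyclin that partners CDK10, was at 10.3, 10.5 and 10.3 CPM in the Input and at 69.1, 70.7 and 58.9 CPM in the IP, a ratio of 2.80 ± 0.09 (SE, edgeR, adjusted p = 1.5e-14).

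The other members that the naming rule placed at the top were *Gm12689* (log2 ratio 2.72), *Fem1a* (2.60), which encodes a substrate receptor of a cullin ubiquitin ligase, *Dolk* (2.42), the dolichol kinase of the glycosylation pathway, *Amigo3* (2.34), a leucine-rich repeat membrane protein, and *Sfn* (2.32), the 14-3-3 sigma gene. *Psme2b* had the highest ratio of all members, 3.32 ± 0.06 (SE, edgeR, adjusted p = 1.4e-17), with 33.8, 32.1 and 33.7 CPM in the Input and 333, 303 and 281 CPM in the IP. It is a near-identical copy of *Psme2*, a proteasome activator subunit gene, and lies on the same strand as an exon of *9930111J21Rik1*, so its reads cannot be assigned with certainty. It was named after its values were seen.

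Counted over the set, 100 of 184 members (54.3%) were higher in the IP than in the Input in Ctrl, the definition of a YTHDF2 target, where 34.1% of the 17416 genes tested were (adjusted p under 0.05, edgeR). Lower in the IP were 34 members (18.5%), against 34.6% of all genes. Among multi-exon genes 32.6% were targets and 45.4% were lower. The median log2 ratio was 0.57 in members, -0.19 in multi-exon genes and 0.02 over all genes tested. At least 2-fold above Input, past the test, were 66 members, and 25 at least 4-fold. The shares of all genes at these limits were not counted, so these numbers describe the members only.

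The members with near-identical copies had lower ratios. Of these 32, 5 (15.6%) were targets in Ctrl and the median log2 ratio was -0.95. They were also shorter, with a median of 988 bases against 2220 in members without a copy, and lower in Input (3.49 against 11.6 CPM). Among multi-exon genes below 1000 bases 9.5% were targets, so a low share was not particular to copies. Of the 152 without a copy 95 (62.5%) were targets, with a median of 0.83, and of the 112 with neither copy nor overlap 64.3%. *Gm2000*, a copy of the ribosomal protein gene *Rpl35* and eighth in Input level, fell from 101, 98.9 and 101 CPM in the Ctrl Inputs to 53.3, 53.6 and 48.6 CPM in the IPs, a log2 ratio of -0.83 ± 0.06 (SE, edgeR, adjusted p = 9.9e-10).

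**Figure D1:**
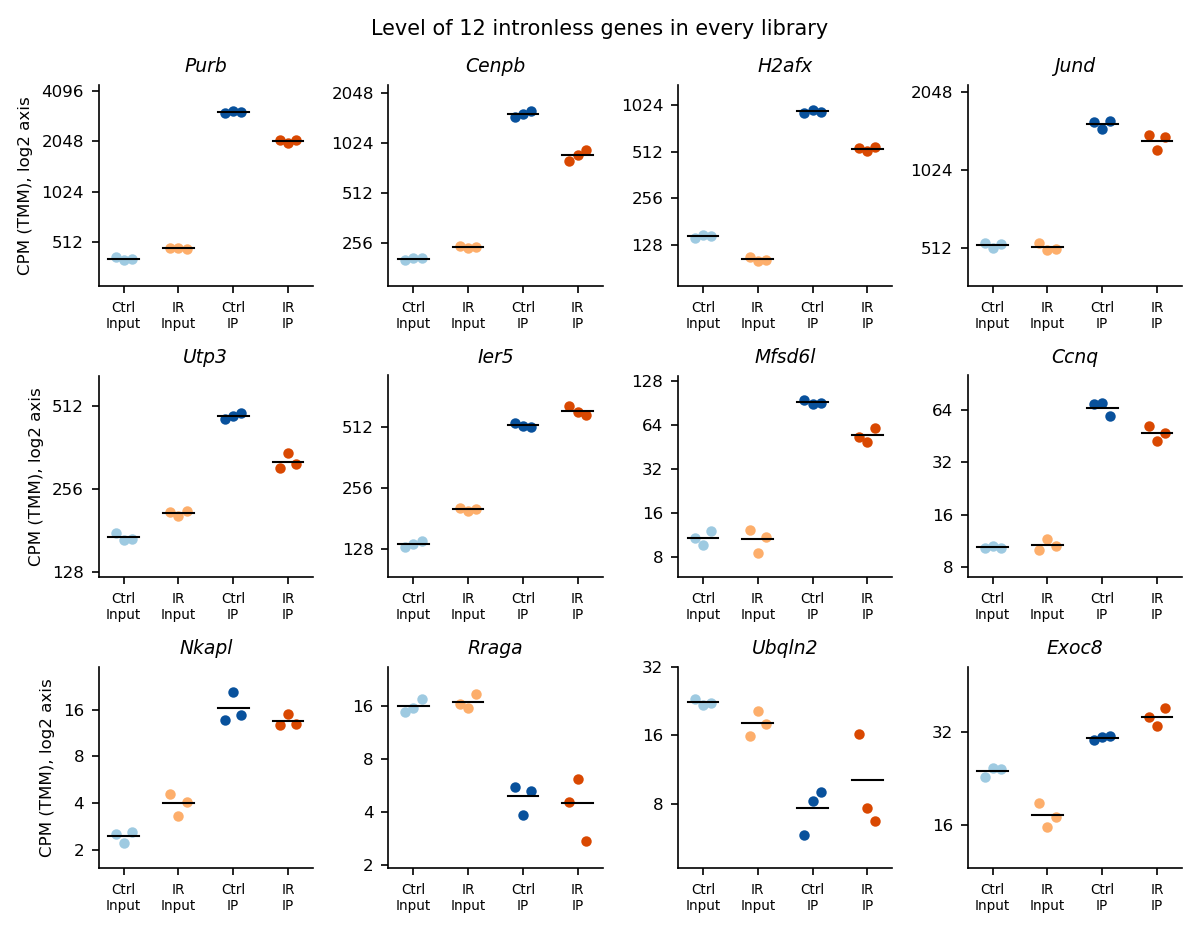
Level in CPM (TMM scale, log2 axes that differ between panels) of 12 intronless genes in each of the 12 libraries, with points for the 3 pools of each group and a line at their mean. In Ctrl every IP value of *Purb*, *Cenpb*, *H2afx*, *Jund*, *Utp3*, *Ier5*, *Mfsd6l*, *Ccnq*, *Nkapl* and *Exoc8* lies above every Input value, and those of *Rraga* and *Ubqln2* lie below.

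A minority of intronless mRNAs without copies was depleted from the IP. *Rraga*, the Rag GTPase gene of amino acid sensing by mTORC1, was at 14.8, 15.6 and 17.5 CPM in the Ctrl Inputs and 5.56, 3.84 and 5.28 CPM in the Ctrl IPs, a log2 ratio of -1.59 ± 0.16 (SE, edgeR, adjusted p = 1.1e-07). *Ubqln2*, which encodes a shuttle factor that carries ubiquitinated proteins to the proteasome, had a ratio of -1.42 ± 0.15 (SE, edgeR, adjusted p = 1.2e-07), from 23.0, 21.8 and 22.2 CPM to 5.85, 8.24 and 9.01 CPM. The others at the low end were *Gm5617* (-1.81), *Magee1* (-1.19), a MAGE family gene, and *F8a* (-0.96), which encodes a partner of huntingtin. *Eid1*, an inhibitor of the EP300 acetyltransferase, was lower by -0.48 ± 0.06 (SE, edgeR, adjusted p = 1.2e-06). *Hnrnpa0*, sixth in Input level and a binder of AU-rich RNA, did not pass the test at 0.10 ± 0.05 (SE, edgeR, adjusted p = 0.075), with 143, 140 and 141 CPM in the Input and 136, 144 and 137 CPM in the IP. Without the pool 1 or the pool 3 IP library it did (0.15 and 0.14, adjusted p = 0.014 and 0.016).

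By function, with roles assigned after the values were known, targets in Ctrl made up 21 of 33 genes of transcription and chromatin, 14 of 20 of RNA processing and translation, 9 of 12 of signalling and cell cycle, 7 of 11 receptors and channels, 7 of 14 of protein folding and turnover, 13 of 23 enzymes, glycosylation and organelle genes and 29 of 71 of other or unknown role, beside 34.1% of all genes. *Sox4*, an HMG box transcription factor, had a log2 ratio of 2.35. *Epop*, a partner of Polycomb repressive complexes, reached 2.16. In RNA processing *Utp3*, a component of the small subunit processome of the nucleolus, had 1.58, *Zrsr1*, related to a splicing factor of the U2AF family, 1.48, and *Sf3b5*, a subunit of the SF3b splicing complex, 0.87. *Ier5*, an immediate early gene of signalling, had 2.07, and the niacin and beta-hydroxybutyrate receptor gene *Hcar2* stood at 1.57. Each of these passed the test.

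In smaller lists of gene families, targets in Ctrl were 6 of 10 members of transcription and DNA-binding genes, 4 of 6 of receptors and membrane proteins, 4 of 5 of GTPases and signalling, 2 of 7 of chaperones and protein turnover, 6 of 7 of RNA and translation and 1 of 5 of enzymes and transporters, where 34.1% of all genes were. The twin heat shock genes *Hspa1a* and *Hspa1b*, which encode nearly the same HSP70, differed, with *Hspa1a* a target (1.72 ± 0.22, SE) and *Hspa1b* at 0.10 ± 0.32 (edgeR, adjusted p = 1.9e-06 and 0.81). Each is the near-identical copy of the other, and *Hspa1a* also overlaps a gene on the opposite strand.

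The second question was how intronless genes compare with multi-exon genes of like transcript length and abundance. Transcripts were sorted into bins by the length of the longest coding transcript and the mean Input level, and each member was set against the median multi-exon gene of its bin. In this comparison the members' median binding intensity exceeded that of multi-exon genes by 0.80 ± 0.037 on the log2 scale in Ctrl (SD, n = 3 pools), with 0.783, 0.768 and 0.839 in the single pools. In IR the excess was 0.74 ± 0.035 (SD, n = 3 pools), with 0.704, 0.730 and 0.774. The pools of the conditions overlap. The difference of -0.06 was slightly larger than a spread of 0.05, the square root of the summed variances of the Ctrl and the IR pools.

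The excess was found over most of the range. It was above 0 in 18 of the 21 bins that held members, in Ctrl and in IR, and in 13 (Ctrl) and 14 (IR) of the 15 bins with 5 or more members. Of the members, 111 stood above their bin's median in all 6 pools and 15 below it in all 6. *Psme2b* had the highest excess in Ctrl, 4.82, ahead of *H2afx* (3.47), *Mfsd6l* (3.45), *Ccnq* (3.19), *Cenpb* (3.18) and *Nkapl* (3.17). *Purb*, whose bin holds the longest transcripts, had 2.77. On the other side lay *Ubqln2* (-1.26), *Rraga* (-1.18) and *Magee1* (-1.17).

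The size of the excess depended on the comparison genes and on the members included. Against multi-exon genes with 2 or 3 exons the excess was 0.45 in Ctrl and 0.48 in IR. Against multi-exon genes with at least 80% of their bases more than 200 bases from an exon junction, a choice made after seeing the data, it was 0.37 and 0.42. Only 93 of the 184 members had bins with enough such genes, so the members changed together with the comparison genes. Without the members that have a copy or an overlap it was 0.97 in Ctrl and 0.99 in IR.

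**Figure D2:**
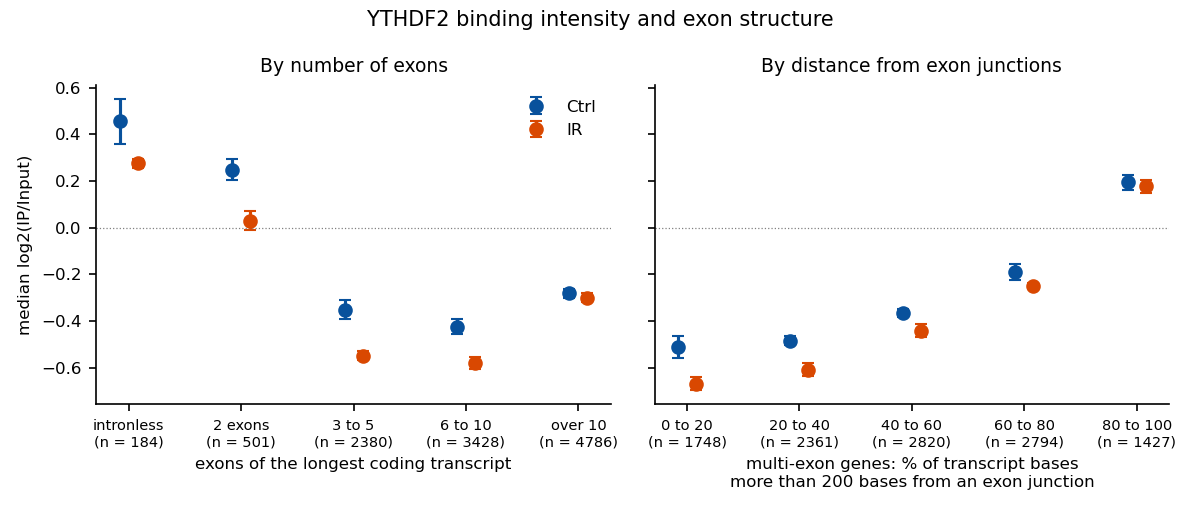
Median log2(IP/Input) of genes by the number of exons of the longest coding transcript (left) and, for multi-exon genes, by the percent of transcript bases more than 200 bases from an exon junction (right), as the mean of 3 pools with bars for their SD, in Ctrl (blue) and IR (orange). The medians fall from intronless genes (0.46 in Ctrl) over genes with 2 exons (0.25) to those with 6 to 10 exons (-0.42), and rise with the distance from junctions from -0.51 to 0.19.

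Along the number of exons, the median binding intensity over the Ctrl pools was 0.46 ± 0.095 (SD, n = 3) in intronless genes, 0.25 ± 0.046 in the 501 genes with 2 exons, -0.35 ± 0.039 in the 2380 with 3 to 5, -0.42 ± 0.031 in the 3428 with 6 to 10 and -0.28 ± 0.021 in the 4786 with more than 10. A further 55 genes, with 1 exon in the longest coding transcript and more in another transcript, had 0.65 ± 0.23 (SD, n = 3). In IR the same classes, without those 55, had 0.28, 0.03, -0.55, -0.58 and -0.30. The share of targets in Ctrl was 54.3% in intronless genes, 50.3% with 2 exons, 33.2% with 3 to 5, 29.2% with 6 to 10 and 32.5% with more than 10. Within multi-exon genes alone the median in Ctrl rose from -0.51 where at most 20% of the bases lay more than 200 bases from a junction to 0.19 where over 80% did, and the share of targets from 22.7% to 50.3%. These classes also differed in length, with medians of 2052 bases for intronless genes, 2036 bases for the class nearest junctions and 4487 bases for the class farthest from them.

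Length set the 2 sets apart in shape. In multi-exon genes the Ctrl median climbed steadily, from -1.39 below 1000 bases over -0.60, -0.39 and -0.24 to -0.03 at 5000 to 8000 bases. Intronless genes were at -0.84 below 1000 bases (27 genes) and then at 0.69 (64 genes of 1000 to 2000 bases), 0.64 (42 genes of 2000 to 3000), 0.65 (41 genes of 3000 to 5000) and 0.30 (8 genes of 5000 to 8000). Only *Purb* and *Mars2* (11294 bases), the gene of the mitochondrial methionyl-tRNA synthetase, were longer. Spearman's correlation of length with binding intensity in Ctrl was 0.22 over the 184 members and 0.02 over the 152 without copies, against 0.27 over multi-exon genes. All genes share the same libraries and are not independent, so these are descriptions.

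**Figure D3:**
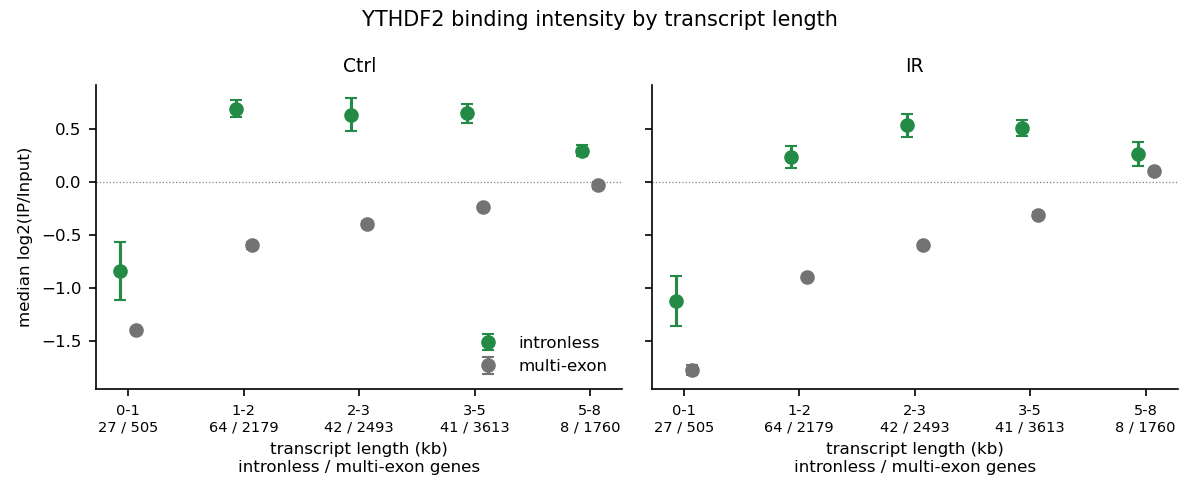
Median log2(IP/Input) by length of the longest coding transcript in intronless (green) and multi-exon genes (grey), as the mean of 3 pools with bars for their SD, in Ctrl (left) and IR (right). Numbers under the axis count intronless and multi-exon genes. In each length class shown the intronless median lies higher, in Ctrl by the widest margin at 1000 to 2000 bases (0.69 against -0.60) and in IR by nearly equal margins at 1000 to 2000 bases (0.23 against -0.89) and 2000 to 3000 bases (0.54 against -0.60).

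The members differed in binding by their density of GGACT. In Ctrl the median binding intensity was -0.08 ± 0.14 (SD, n = 3 pools) in the 61 members with the fewest motifs per base, 0.70 ± 0.093 in the middle 61 and 0.87 ± 0.10 in the 62 with the most, and 32.8%, 63.9% and 66.1% of them were targets. In IR the medians were -0.15, 0.50 and 0.37, with 27.9%, 57.4% and 53.2% targets, so the densest group lay below the middle one there. Leaving out members with copies, the Ctrl medians were 0.36, 0.78 and 0.95. The IR medians were then 0.21, 0.54 and 0.55, so the densest group no longer lay below the middle one. Spearman's correlation in Ctrl was 0.28 over members and 0.08 over multi-exon genes. *Kcna3*, with no GGACT, was still a target at a log2 ratio of 0.84 ± 0.09 (SE, edgeR, adjusted p = 3.1e-07), and *H2afx* and *Ccnq*, with 1 each, were among the highest.

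The third question was what irradiation changed. In IR, 85 of 184 members (46.2%) were targets, where 32.1% of the 18650 genes tested were, and 30 (16.3%) were lower in the IP, against 30.4%. Multi-exon genes had 24.6% targets, against 32.6% in Ctrl, so their share was lower in IR as well. The lower number of member targets in IR depends on the scaling. With library size only, 90 members were targets in Ctrl and 93 in IR, and with all 12 libraries in 1 fit 88 and 85. The median log2 ratio of the members was 0.43, and it was 0.58 without the copies. The members that were targets in both conditions numbered 80, with 20 called in Ctrl alone and 5 in IR alone, namely *1700056E22Rik*, *Fzd7*, *Kbtbd6*, *Mcts2* and *Rap2b*. Without the pool 2 or pool 3 IR Input, *Rap2b* was not called (adjusted p = 0.11 and 0.065). The same split was not counted over all genes. A call in 1 condition alone is not by itself a difference, which the interaction below tests.

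*Purb* was at 470, 473 and 466 CPM in the IR Inputs and at 2079, 2016 and 2085 CPM in the IR IPs. Its abundance was slightly higher than in Ctrl and its IP lower, and neither pair of groups overlapped. The binding intensity in IR was 2.26 ± 0.03, and it changed by -0.76 ± 0.04 from Ctrl (SE, edgeR interaction, adjusted p = 9.3e-11), with log2 ratios of 2.86, 2.96 and 2.93 in the Ctrl pools and 2.14, 2.09 and 2.16 in the IR pools. In the Input it rose by 0.13 ± 0.03 (SE, edgeR, adjusted p = 0.0016), and in the IP it fell by 0.54 on the log2 scale (edgeR, adjusted p = 2.7e-09).

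Over the set, the interaction called 46 members (25%) with lower binding intensity after IR and 9 (4.89%) with higher, against 13.9% and 6.28% of the 20720 genes tested. In multi-exon genes the shares were 21.9% lower and 8.16% higher. In 68 members (37.0%) all IR pools lay below all Ctrl pools, and in 16 (8.70%) they lay above. The shares were 22.6% and 13.2% over all genes and 32.4% and 11.9% over multi-exon genes. The median change was -0.24 in members, -0.14 in multi-exon genes and -0.08 over all genes. The direction of single changes depends on the scaling. With library size only, the median of all genes moved by 0.31 and the calls became 17 higher and 15 lower. Scaling moves all genes nearly alike, so the members' median, 0.16 below that of all genes on the TMM scale, keeps that distance under any scaling by construction. Below the median of all genes lay 113 of 184 members (61.4%). The excess over multi-exon genes, in which the scaling of a library cancels apart from the prior count, differed between the conditions by -0.06 against a spread of 0.05, by -0.22 with members of at least 5 CPM and by -0.15 with the median transcript length.

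**Figure D4:**
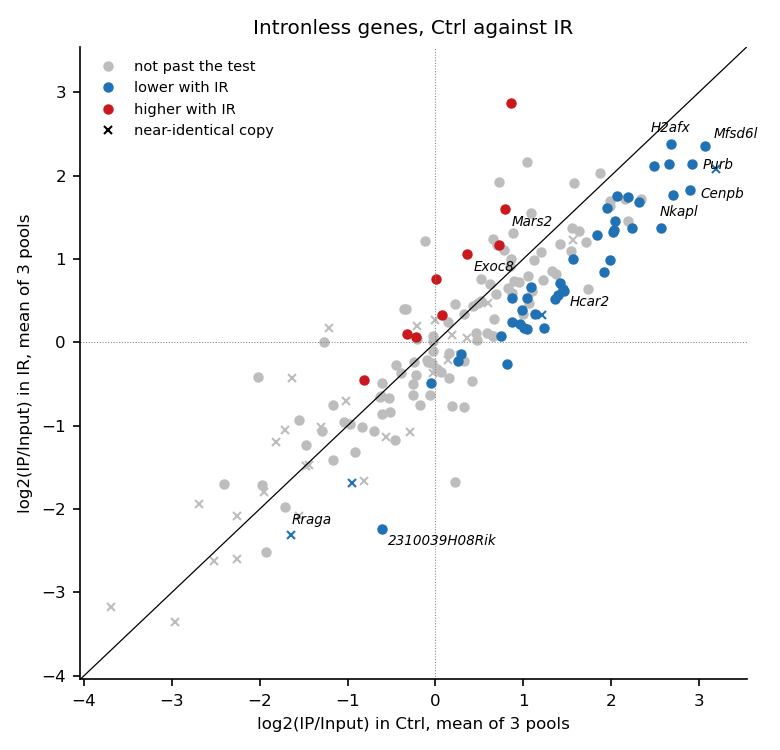
Mean log2(IP/Input) of 3 pools in IR (vertical) against Ctrl (horizontal) for 182 of the 184 intronless genes, with crosses for those with a near-identical copy and the diagonal of equal values. Colors mark the interaction test (adjusted p under 0.05, TMM scaling), blue for lower and red for higher with IR. Most genes that pass it were bound in Ctrl and lie below the diagonal, and *2310039H08Rik* is the lowest of the blue circles.

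Of the 46 members with lower binding, 23 rose in the Input, 29 fell in the IP, 9 did both and 3 (*Hexim1*, *Rhob* and *Trmt12*) did neither. The binding change is the IP change minus the Input change, so such moves are partly set by the selection. Their share among all genes with lower binding was not counted. *Cenpb*, in both classes, went to 245, 240 and 242 CPM in the IR Inputs and 800, 858 and 932 CPM in the IR IPs, and its binding intensity changed by -1.04 ± 0.06 (SE, edgeR, adjusted p = 4.2e-10). *Utp3* was at 177, 167 and 168 CPM in the Ctrl Inputs and 211, 204 and 212 CPM in the IR Inputs, and at 458, 471 and 480 CPM in the Ctrl IPs and 305, 344 and 314 CPM in the IR IPs, a change of -0.82 ± 0.07 (SE, edgeR, adjusted p = 2.6e-08). *Sox4* rose in the Input from 82.9, 77.0 and 74.6 to 117, 105 and 114 CPM while its IP went from 356, 352 and 395 to 283, 287 and 296 CPM, a change of -0.84 ± 0.08 (SE, edgeR, adjusted p = 2.3e-07). *Hcar2* likewise had 51.9, 50.1 and 54.8 CPM against 69.9, 61.7 and 70.6 CPM in the Input and 143, 139 and 147 CPM against 102, 100 and 111 CPM in the IP, a change of -0.80 ± 0.09 (SE, edgeR, adjusted p = 3.1e-06).

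Other abundant members had smaller changes of binding intensity. *Ier5* rose in the Input from 130, 135 and 139 CPM to 203, 198 and 200 CPM and in the IP from 534, 518 and 513 CPM to 652, 604 and 587 CPM. Its binding intensity was lower by -0.31 ± 0.06 (SE, edgeR, adjusted p = 0.00099) on the TMM scale, and with library size only the change was 0.00019, with no direction left. *H2afx* fell in both fractions, to 107, 100 and 102 CPM in the IR Inputs and 538, 513 and 550 CPM in the IR IPs, and its change of -0.28 ± 0.06 (SE, edgeR, adjusted p = 0.0011) turned to 0.029 with library size only. *Jund* did not pass the test of the change, at -0.16 ± 0.06 (SE, edgeR, adjusted p = 0.084), and did pass it with the pool as a block (adjusted p = 0.044) or without the pool 1 IR IP library (adjusted p = 0.036).

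The largest falls that met the naming rule were those of *2310039H08Rik* (-1.63), *Gm12689* (-1.18), *Ufsp1* (-1.08), a protease gene of the ubiquitin-like modifier UFM1, *Fahd1* (-1.07), a mitochondrial acylpyruvase gene, and *Nkapl* (-0.96). These are low genes, with mean counts of 148 to 297 per library. *2310039H08Rik* had 2.40, 5.95 and 3.74 CPM in the Ctrl IPs and 1.67, 0.647 and 1.53 CPM in the IR IPs. *Fahd1* and *Ufsp1* were targets in Ctrl (0.96 and 1.39) and did not pass the test in IR (-0.14 and 0.29). *Nkapl* and *Gm12689* stayed targets at 1.89 and 1.51. Of the 5 changes only that of *Gm12689* kept its call without each library in turn. The call of *2310039H08Rik* was lost without the pool 2 Ctrl Input (adjusted p = 0.053) or IP (0.095), and that of *Nkapl* without the pool 1 IR Input (0.053) or the pool 2 Ctrl IP (0.086). *Fahd1* lost it without the pool 2 or pool 3 Input of either condition, the pool 2 Ctrl IP or the pool 3 IR IP (adjusted p = 0.058 to 0.12). *Ufsp1* lost it without any Ctrl Input, the pool 1 or pool 3 IR Input, or the pool 1 or pool 3 Ctrl IP (adjusted p = 0.055 to 0.13), and with the pool as a block (0.072). With library size only, the calls of these 4 were also lost (adjusted p = 0.062 to 0.14).

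Binding intensity was higher after IR in 9 members, whose Input and IP moves are likewise partly set by the selection. In 8 of them the Input fell, and in the ninth, *Rap2b*, a Ras family GTPase gene, the IP rose, from 83.5, 98.4 and 88.1 CPM to 125, 130 and 128 CPM (change 0.30 ± 0.09, SE, edgeR, adjusted p = 0.015). *Exoc8*, a subunit of the exocyst that tethers secretory vesicles, fell in the Input from 22.9, 24.5 and 24.4 CPM to 19, 15.8 and 17.0 CPM, and its IP was at 30.1, 31.0 and 31.1 CPM in Ctrl and 35.8, 33.7 and 38.4 CPM in IR. Its change was 0.72 ± 0.14 (SE, edgeR, adjusted p = 0.0008). *Mars2* was at 8.83, 9.44 and 7.85 CPM in the Ctrl Inputs and at 4.74, 4.39 and 4.64 CPM in the IR Inputs, with no overlap, and with a change of 0.86 ± 0.26 (SE, edgeR, adjusted p = 0.024). The rest were *Fzd7* (0.77), a Wnt receptor gene, *Kcna3* (0.48), the voltage-gated potassium channel Kv1.3, *Itpripl2* (0.26), and outside the naming rule *Klhl9*, *Mgat2* and *1700020D05Rik*. The count was 5 members without the pool 1 Ctrl Input, 3 without the pool 3 Ctrl Input, 4 without the pool 2 IR Input and 2 without the pool 3 IR Input. *Exoc8* kept its call without each library, while *Rap2b* lost it without the pool 2 IR Input (adjusted p = 0.054). *Mars2* lost its call without the pool 1 or pool 2 Ctrl Input or the pool 2 or pool 3 IR Input (adjusted p = 0.051 to 0.067), and *Fzd7* without either pool 3 Input (0.058 and 0.067). *Kcna3* lost it without the pool 2 or pool 3 Input of either condition (0.056 to 0.07), and *Itpripl2* without the pool 2 or pool 3 Ctrl Input or the pool 1 or pool 3 IR Input (0.068 to 0.14). With the pool as a block *Kcna3* and *Itpripl2* also missed the threshold (adjusted p = 0.063 and 0.067).

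**Figure D5:**
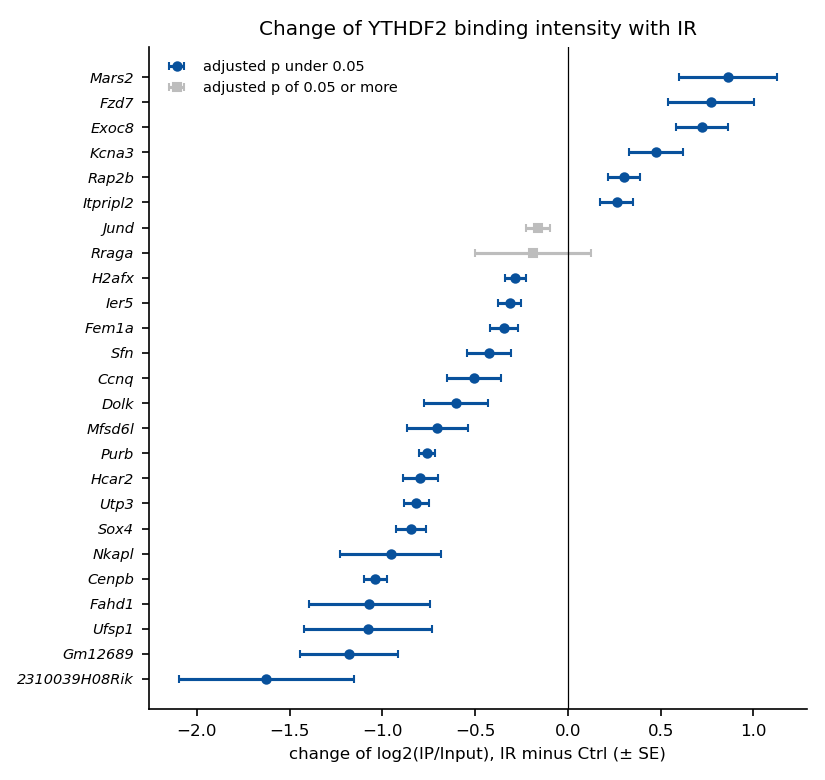
Change of log2(IP/Input) from Ctrl to IR with its SE (edgeR interaction, TMM scaling, n = 3 pools a group) for 25 intronless genes named in the text, blue circles for adjusted p under 0.05 and grey squares for the others. The changes run from -1.63 in *2310039H08Rik* to 0.86 in *Mars2*, and *Jund* and *Rraga* did not pass the test. With library size only, the changes of *H2afx* and *Ier5* turn to 0.029 and 0.00019.

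By role, lower and higher binding after IR were called in 12 and 0 of 33 genes of transcription and chromatin, 9 and 1 of 20 of RNA processing and translation, 5 and 1 of 14 of protein folding and turnover, 4 and 1 of 12 of signalling and cell cycle, 3 and 2 of 11 receptors and channels, 6 and 2 of 23 enzymes and organelle genes and 7 and 2 of 71 others. Over all genes 13.9% were lower and 6.28% higher, so that the 7 and 2 of 71 lay below both shares. In RNA processing *Zrsr1* changed by -0.81 and *Sf3b5* by -0.65, and *Sf3b5* did not pass the test of IP against Input in IR (0.20 ± 0.09, SE, edgeR, adjusted p = 0.069), though it did without the pool 1 or the pool 2 IR IP (0.35 and 0.27, adjusted p = 0.0023 and 0.043). *Epop* changed by -0.66 and stayed a target.

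The abundance of the members moved in both directions. In the Input 49 members (26.6%) rose with IR and 37 (20.1%) fell, against 21% and 23.9% of the 16914 genes tested. Multi-exon genes had 24.5% and 29.7%. In the IP 8 members (4.35%) rose and 36 (19.6%) fell, against 6.12% and 9.85% of 19255 genes and 6.15% and 15.3% of multi-exon genes. The 8 rises in the IP became 2 without the pool 1 or pool 3 Ctrl IP, 4 without the pool 2 Ctrl IP and 5 without the pool 2 or pool 3 IR IP. With all 12 libraries in 1 fit, 13 members fell in the Input and 15 rose in the IP, and with library size only 15 rose and 18 fell in the IP. The shares of all genes in these fits were not counted. *Ier5* rose by 0.49 ± 0.03, *Zrsr1* by 0.46 ± 0.05 and *Sox4* by 0.44 ± 0.05 in the Input (SE, edgeR, adjusted p = 6.4e-12, 5.4e-09 and 1.6e-08). *Mars2* fell by 1.0, *Fzd7* by 0.72, *H2afx* by 0.57 and *Hnrnpa0* by 0.43 on the log2 scale (edgeR, adjusted p = 4.2e-07, 3.8e-06, 1.5e-12 and 2.4e-10). In the IP *Rap2b* rose by 0.54 ± 0.08 (SE, edgeR, adjusted p = 0.00013), and *Cenpb* and *H2afx* fell by 0.79 and 0.77. The interaction shares its Input libraries with the Input comparison and its IP libraries with the IP comparison. A change in the interaction and in either of these comparisons is therefore not separate evidence.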

How the data were processed

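RIP-seq libraries of CD11b+ myeloid cells (3 pools of 5 mice per condition, each with 1 Input and 1 IP library, 12 in all) were grouped by their titles. The authors used Trimmomatic 0.39 for trimming and HISAT for alignment to mm10, with GENCODE annotation (version M19 in the methods), and deposited whole-number HTSeq counts per gene without normalization. The strand setting of the counting and any duplicate removal are not given in the sources used here. The methods name an Aviva antibody and total RNA libraries, the labels an Abcam antibody and mRNA. Gene models came from GENCODE M21, to which 99.9% of 54446 identifiers matched. Copies were found with BLAST 2.17.0.

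Counts were tested with edgeR 4.0.16 (R 4.3.3, quasi-likelihood test, TMM, a minimum of 10 counts in 3 or more of the libraries compared, Benjamini-Hochberg over all genes tested, threshold 0.05), with SE as the absolute log2 fold change over the square root of F. The binding change is the interaction over 12 libraries. For the excess, log2 CPM with a prior count of 2 gave a log2 ratio of IP to Input per pool, and bins needed at least 20 multi-exon genes. No test was made over the members as a set. The pools are called technical replicates in the methods, so p-values may measure technical spread only, and reads carry no molecular identifiers. In all 4 groups the pools varied beyond counting noise (3.66 to 23.8 times the binomial variance).

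The members, the gene lists and the roles were chosen with earlier results of these data known. Named genes were *Purb*, per comparison the 8 largest rises and 5 largest falls past the test with the same direction in every pool, at least 100 counts per library on average and neither copy nor overlap, the 10 members with the highest Input level, the genes next to the CPM limit and the members of 6 lists of gene families (results under targets in Ctrl). *Psme2b*, *Hcar2*, *Epop*, *Klhl9*, *Mgat2*, *1700020D05Rik* and the genes listed for a count of 5 or fewer were named after their values were seen. Not every member is reported by name here. IP and Input of the same pool and number come from 1 lysate and are paired by design. Over 9855 genes the deviations of paired libraries from their group means correlated at -0.057 to 0.027. The steps were tested on simulated counts. DESeq2 1.42.0, the authors' tool, and the other alternatives are under the closing section.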

Additional observations from a re-analysis of the deposited data

Results flagged for a closer look

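The interaction of fraction and condition tested the difference of binding intensity between IR and Ctrl directly, and it called 28 of the members whose change is given here (edgeR, adjusted p under 0.05, log2 scale, IR minus Ctrl). With 3 pools a group, no search for single outlying libraries was made.

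Among abundant members the changes were -0.76 in *Purb*, -1.04 in *Cenpb*, -0.82 in *Utp3*, -0.84 in *Sox4*, -0.81 in *Zrsr1*, -0.80 in *Hcar2*, -0.65 in *Sf3b5* and -0.66 in *Epop*. *Psme2b* changed by -1.09 and *Gm2000* by -0.71, and both have near-identical copies. *Ier5* (-0.31) and *H2afx* (-0.28) had no such change with library size only.

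At lower counts *2310039H08Rik* changed by -1.63, *Gm12689* by -1.18, *Ufsp1* by -1.08, *Fahd1* by -1.07, *Nkapl* by -0.96, *Mfsd6l* by -0.70, *Dolk* by -0.60, *Ccnq* by -0.51, *Sfn* by -0.43 and *Fem1a* by -0.35. *Dolk* lost its call without the pool 1 Ctrl Input, the pool 3 IR Input or the pool 2 or pool 3 Ctrl IP (adjusted p = 0.053 to 0.088). *Ccnq* lost it without the pool 2 IR Input or the pool 1 or pool 2 Ctrl IP (0.061 to 0.10), and *Sfn* without the pool 2 or pool 3 Ctrl IP (0.10 and 0.098). With library size only *Mfsd6l*, *Dolk*, *Ccnq*, *Sfn* and *Fem1a* were not called (adjusted p = 0.11 to 0.84).

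Higher after IR were *Mars2* (0.86), *Fzd7* (0.77), *Exoc8* (0.72), *Kcna3* (0.48), *Rap2b* (0.30) and *Itpripl2* (0.26), of which all but *Exoc8* lost the call without some single library.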

How the results depend on the processing

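At least 2-fold and past the test, 66 members were targets in Ctrl and 22 were lower, 51 were targets in IR, 1 had higher and 7 lower binding intensity after IR, 2 rose and 4 fell in the Input, and 1 rose and 2 fell in the IP. Over all genes no counts at this limit were made. Leaving out members with a copy or an overlap keeps 112, so these counts also fall with the size of the set. Of the 112, 14 (12.5%, against 18.5% of all 184) were lower than Input in Ctrl and 9 (8.04%, against 16.3%) in IR. Lower binding after IR was called in 28 (25%, as in all 184). In the Input 25 rose (22.3%, against 26.6%), and in the IP 23 fell (20.5%, against 19.6%). Without copies alone, chosen after seeing the data, 19 of 152 (12.5%) were lower in Ctrl and 16 (10.5%) in IR. With library size only, the change was higher in 17 and lower in 15, 15 rose and 18 fell in the IP, *H2afx* turned to 0.029 and *Ier5* to 0.00019, the calls of *2310039H08Rik*, *Ufsp1*, *Fahd1*, *Nkapl*, *Mfsd6l*, *Dolk*, *Ccnq*, *Sfn* and *Fem1a* were lost, and *Hnrnpa0* (0.37), *Ubqln2* (1.06) and *Gm10521* (1.5) were called higher. With all 12 libraries in 1 fit 13 fell in the Input and 15 rose in the IP, and at 5 CPM or more 5 rose in the IP. DESeq2 called 103 targets in Ctrl, 91 in IR and 43 lower and 10 higher changes. With library size only 90 members were targets in Ctrl and 93 in IR, and with all 12 libraries in 1 fit 88 and 85. The shares of all genes called under these settings were not counted.

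The excess was 0.97 in Ctrl, 0.99 in IR and 0.018 for the change without copies or overlaps, 1.03 and 0.98 without copies, 1.05, 0.83 and -0.22 at 5 CPM or more, 0.68, 0.53 and -0.15 with the median transcript length, 0.68 in IR without bins, 0.74 in Ctrl with the level taken from the Ctrl Inputs, 0.45, 0.48 and 0.029 against genes with 2 or 3 exons, and 0.37, 0.42 and 0.052 against genes far from junctions. These alternatives use other genes or bins by construction, and only 93 members for the genes far from junctions. The cause of the other differences was not tested.

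IP and Input of a pool share a lysate. With the pool as a replicate block, 100 members were targets in Ctrl and 83 in IR, and binding was lower in 48 and higher in 6. Beside the calls of *Kcna3*, *Itpripl2*, *Ufsp1* and *Jund*, the block changed 1 other call of a named gene, that of *Ubqln2* in IR (-0.81, adjusted p = 0.0072).

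Leaving out 1 library at a time gave 91 to 102 targets and 31 to 37 lower in Ctrl, 70 to 92 and 25 to 37 in IR, 2 to 13 higher and 32 to 51 lower changes, 41 to 45 rises and 29 to 34 falls in the Input, and 2 to 7 rises and 24 to 34 falls in the IP. The excess ranged from 0.776 to 0.811 in Ctrl, from 0.717 to 0.752 in IR and from -0.080 to -0.040 for the change. Of the 5 largest falls under the naming rule, in genes with mean counts of 148 to 297 per library, 4 lost their call on leaving out a library, as did the changes of the more abundant *Rap2b* and *Itpripl2*, and the part of depth was not tested.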
